A study of Mus musculus with 2 samples.

Results

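The genes described here are 38 microglia and complement genes, chosen by gene symbol from a written list, out of 55536 annotated genes. The list joins genes by which microglia are recognised, the signals that reach these cells, the first complement components, and proteins of engulfment with the brakes that restrain it. All 38 symbols matched a single gene in both libraries. They were measured by total RNA sequencing of the hippocampus, given in the labels as a layer of that structure, from male B6CASTF1/J mice, the first generation of a cross of C57BL/6J with CAST/EiJ, at 14 days of age. The labels list no treatment and number 2 biological replicates of 1 group, so no condition was compared. Each label names 3 males with animal numbers of their own and 300 ng of starting RNA, and does not say whether the RNA of the animals was pooled. Replicate 2 had 31755578 expected counts (estimated reads per gene) and replicate 1 had 29144892. What can be described is the level of each gene in this tissue, how the genes of a pathway stood to each other, and how far the 2 libraries differed.

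Microglia are the resident macrophages of the brain. They derive from the yolk sac, depend on signalling through the receptor Csf1r, and survey the tissue with processes that respond to purines and to the neuronal chemokine fractalkine. In the postnatal hippocampus they are known for taking up synaptic material, and complement is one of the systems linked to it: C1q binds a target, the cascade through C4 and C3 can then coat it, and the receptor formed by Itgam and Itgb2 recognises the coat. Other signals, such as the binding of Cd47 to Sirpa, hold engulfment back.

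The genes of the 3 chains of C1q lie beside each other on mouse chromosome 4, and their mRNA levels were close to each other. For this reason the promoters of C1qb and C1qc are shown, as given by RefSeq on GRCm38.p6, from 250 bases before to 50 bases after the transcription start on the minus strand. C1qb occupies chr4:136886151-136886450 and C1qc chr4:136892865-136893164. Capitals mark the letters ACTTCCTC, the reverse complement of GAGGAAGT, a sequence of the kind bound by PU.1, the macrophage factor encoded by Spi1.
C1qb: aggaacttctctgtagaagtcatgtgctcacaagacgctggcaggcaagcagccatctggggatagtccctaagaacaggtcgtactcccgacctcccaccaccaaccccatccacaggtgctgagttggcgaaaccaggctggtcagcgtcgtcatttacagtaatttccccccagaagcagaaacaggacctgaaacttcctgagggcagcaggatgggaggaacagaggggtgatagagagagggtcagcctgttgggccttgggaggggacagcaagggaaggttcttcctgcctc
C1qc: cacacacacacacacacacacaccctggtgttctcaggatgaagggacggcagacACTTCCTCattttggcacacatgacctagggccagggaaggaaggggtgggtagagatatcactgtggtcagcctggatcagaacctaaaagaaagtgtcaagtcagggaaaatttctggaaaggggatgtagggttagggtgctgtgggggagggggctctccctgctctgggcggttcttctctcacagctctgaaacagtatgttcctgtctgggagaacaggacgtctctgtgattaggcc
The C1qc match began 195 bases before the start, and the C1qb window held no match on either strand. RefSeq windows were matched for 27 of the 38 genes. The letters GAGGAAGT, searched on both strands, were in 2 of these 27 (C1qc and Ctss), or 7.41%, and in 997 of 27025 genes of the whole table, or 3.69%. A match in a window is a description of its letters and not evidence of a bound site.

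Of the 38 genes, 37 had a TPM (a level corrected for transcript length and scaled to a fixed total per library) of at least 1 in both libraries, and the exception was C3. Over all 22028 protein-coding genes, 58.7% passed the same threshold. The 38 genes had a median level of 7.22 TPM, with library medians of 7.38 in replicate 2 and 7.205 in replicate 1, and together they took 0.155% of the counts in replicate 2 and 0.149% in replicate 1. By level, 20 had a mean TPM between 1 and 10, 14 between 10 and 50, and 3 above 100. Of the 38, 12 lay above 15.2 TPM, the median of the protein-coding genes detected in both libraries. The plot of levels by role shows that the 3 highest were the ligand Cx3cl1 and the inhibitory pair Sirpa and Cd47. TPM in these tables is shared with abundant structural RNAs, and protein-coding genes held 485480 of each 1000000 TPM in replicate 2 and 462615 in replicate 1. Rescaled to protein-coding genes alone, the median of the 38 genes was 15.2 TPM. This value cannot be set against the median of 15.2 TPM of detected protein-coding genes above, which was not rescaled.

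**Figure D1:**
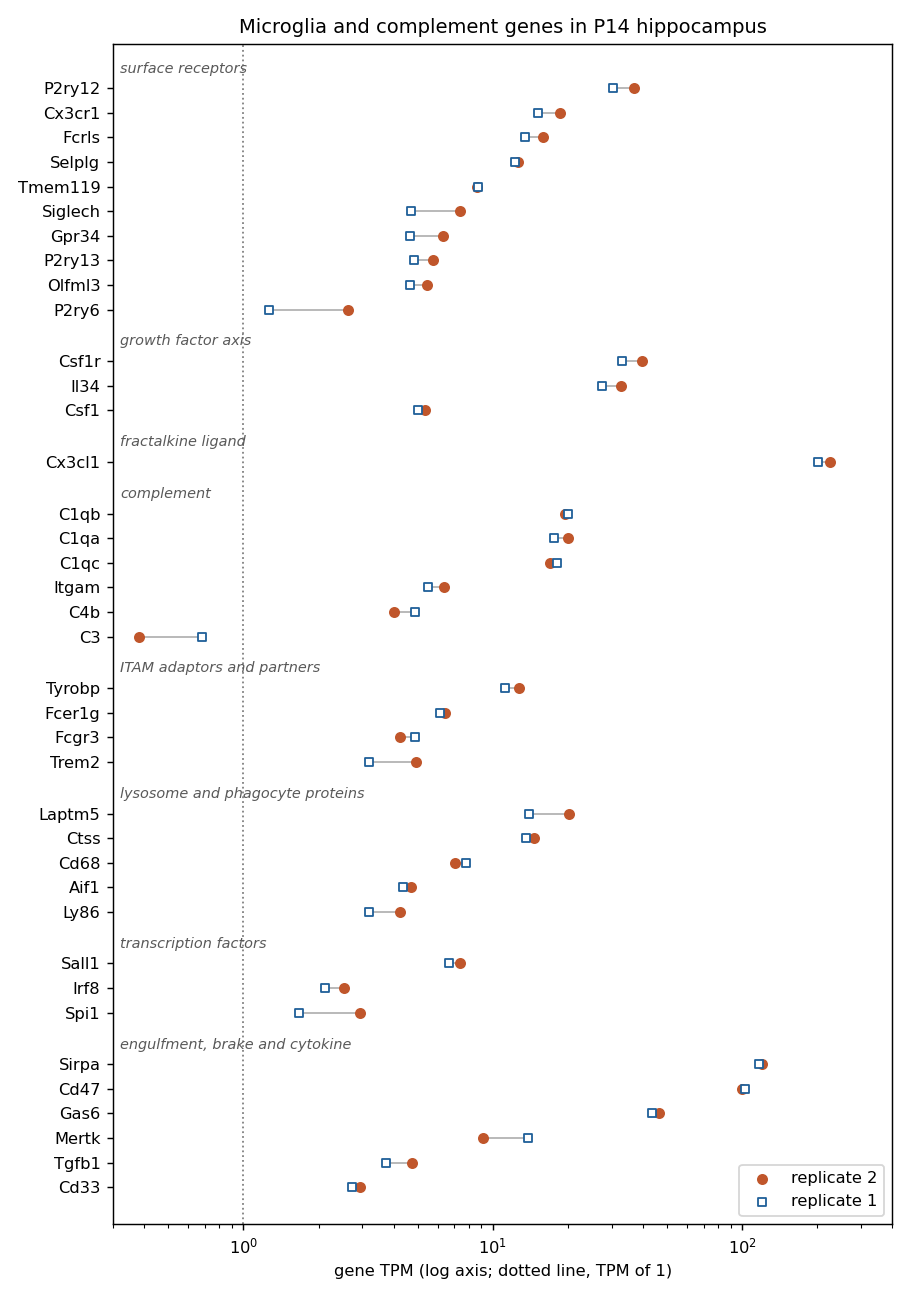
Gene TPM of the 38 genes on a log axis, grouped by role, with filled circles for replicate 2, open squares for replicate 1 and a line joining the 2 libraries. Cx3cl1, Sirpa and Cd47 lie above 100 TPM, and C3 alone lies left of the dotted line at a TPM of 1 in both libraries.

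The cell type named by the list was checked against 9 markers of microglia, P2ry12, Tmem119, Cx3cr1, Csf1r, Siglech, Fcrls, Sall1, Gpr34 and Olfml3, which are themselves among the 38 genes. All 9 were detected, with summed levels of 146 TPM in replicate 2 and 121 TPM in replicate 1. Of 27 further microglial markers, 21 were detected in both libraries. Markers of border macrophages, the related cells of meninges and vessels, were lower, with 5 of 10 detected. Their sums were 19.0 TPM in replicate 2 and 21.7 TPM in replicate 1. Median levels were 8.66 TPM for the 9 microglial markers and 2.63 TPM for the 27 further ones. For the border macrophage markers the median was 1.12 TPM. Stab1, a scavenger receptor of such cells that other cells of vessels also express, had 10.7 TPM in replicate 2 and 11.7 TPM in replicate 1, and the mannose receptor Mrc1 had 2.62 TPM in replicate 2 and 2.55 TPM in replicate 1. P2ry12 was 12.9-fold above Mrc1 (log2 ratio 3.69 ± 0.17, SD, n = 2). None of 11 markers of blood leukocytes was detected, their sums were 1.65 TPM in replicate 2 and 1.38 TPM in replicate 1, and Cd3g and Nkg7 had no counts in either library. In bulk tissue, fewer cells of a type and less RNA per cell cannot be told apart, and a gene that neurons or astrocytes also express cannot be assigned to microglia.

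Among the 10 genes grouped as surface receptors, which leaves Csf1r and Sirpa to the groups below, P2ry12 was the highest (ENSMUSG00000036353.13, chromosome 3, 59216272 to 59262871, mm10). This receptor for ADP guides microglial processes towards sites of purine release. It had 36.9 TPM in replicate 2 and 30.3 TPM in replicate 1, from 1296 counts in replicate 2 and 1034 in replicate 1. Its neighbour on chromosome 3, P2ry13, another ADP receptor, had 5.77 TPM in replicate 2 and 4.81 TPM in replicate 1. P2ry6, a receptor for UDP linked to phagocytosis, had 2.62 TPM in replicate 2 and 1.26 TPM in replicate 1. P2ry12 therefore stood 6.35-fold above P2ry13 (log2 ratio 2.67 ± 0.015, SD, n = 2) and 18.4-fold above P2ry6 (4.20 ± 0.55, or 3.59 with a pseudocount of 1). The P2ry12 locus lies within Med12l on the opposite strand, but their exons share only 9 bases.

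Cx3cr1, the fractalkine receptor, had 18.6 TPM in replicate 2 and 15.1 TPM in replicate 1, and its ligand Cx3cl1 had 224 TPM in replicate 2 and 202 TPM in replicate 1. Cx3cl1 is a membrane-bound chemokine made mainly by neurons in the brain, and it was the highest of the 38 genes. The ligand exceeded its receptor 12.7-fold in TPM (log2 ratio 3.66 ± 0.11, SD, n = 2). The proteases that release fractalkine from the membrane were both detected, with Adam10 at 31.7 TPM in replicate 2 and 28.5 TPM in replicate 1 and Adam17 at 10.7 TPM in replicate 2 and 11.0 TPM in replicate 1.

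The remaining surface proteins formed a graded series. Fcrls, an Fc receptor-like protein typical of mouse microglia, had 15.8 TPM in replicate 2 and 13.5 TPM in replicate 1. Selplg, a ligand of selectins, had 12.6 and 12.3 TPM in replicates 2 and 1, and Tmem119, a membrane protein widely used as a microglial marker, had 8.64 TPM in replicate 2 and 8.68 TPM in replicate 1. Siglech, a sialic acid-binding lectin, averaged 6.03 ± 1.90 TPM (SD, n = 2), the lysophosphatidylserine receptor Gpr34 5.49 ± 1.18 and the secreted olfactomedin protein Olfml3 5.04 ± 0.54. Siglech had 7.37 TPM in replicate 2 and 4.68 TPM in replicate 1, Gpr34 had 6.32 TPM in replicate 2 and 4.65 TPM in replicate 1, and Olfml3 had 5.42 TPM in replicate 2 and 4.66 TPM in replicate 1. The values of these 3 genes overlapped, so their order was not resolved beyond the spread between the libraries.

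In the growth factor axis, the whole-gene levels of the receptor and of Il34 lay close together, above that of Csf1. Csf1r, the tyrosine kinase on which microglial survival depends (ENSMUSG00000024621.16, chromosome 18, 61100598 to 61132149), had 39.5 TPM in replicate 2 and 33.1 TPM in replicate 1. Its ligand Il34, made chiefly by forebrain neurons, had 32.7 TPM in replicate 2 and 27.3 TPM in replicate 1. The other ligand, Csf1, had 5.32 TPM in replicate 2 and 5.0 TPM in replicate 1. At the whole-gene level, Il34 exceeded Csf1 5.80-fold (log2 ratio 2.54 ± 0.12, SD, n = 2), and the receptor exceeded Csf1 7.01-fold. Csf1r and Il34 differed by 0.27 ± 0.003 on the log2 scale and were not called different. In the first quantification, coding transcripts held 57.5% of the Il34 TPM, against 95.2% for Csf1. The coding Il34-201 had 16.6 TPM in replicate 2 and 16.2 TPM in replicate 1. The coding Csf1r-201 had 28.6 TPM in replicate 2 and 26.15 TPM in replicate 1. The ratios above are therefore not those of coding transcripts, for which no ratio was tested. Of the Csf1r exon bases, 15.1% overlap Hmgxb3 on the opposite strand, which had 17.5 and 17.1 TPM in replicates 2 and 1. The sources used here do not state whether counting used strand, so reads in that stretch are uncertain.

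The C1q chains had nearly equal levels. C1qa had 19.98 TPM in replicate 2 and 17.6 TPM in replicate 1. C1qb had 19.5 TPM in replicate 2 and 19.9 TPM in replicate 1. C1qc had 17.0 TPM in replicate 2 and 18.1 TPM in replicate 1. These 6 values rested on 334 to 415 counts each. Those of C1qa overlapped both other chains, while C1qb lay above C1qc in both libraries, and none of the 3 pairs of chains was called different: the log2 ratios were 0.07 ± 0.15 for C1qb to C1qa, -0.10 ± 0.19 for C1qc to C1qa and 0.17 ± 0.043 for C1qb to C1qc (SD, n = 2). A pair was called where its log2 ratio had 1 sign in both libraries and a mean beyond both 0.5 and 2 SD. By this rule 13 of 20 pairs examined differed and 7 did not.

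Components downstream of C1q were lower. C4b, a form of component C4 (ENSMUSG00000073418.4, chromosome 17, 34728380 to 34743882), had 4.03 TPM in replicate 2 and 4.86 TPM in replicate 1. C3, the central component on which the pathways converge (ENSMUSG00000024164.15, chromosome 17, 57203970 to 57228136), had 0.38 TPM in replicate 2 and 0.68 TPM in replicate 1, from 41 counts in replicate 2 and 56 in replicate 1. The 95% counting intervals of C3 were 0.273 to 0.516 TPM in replicate 2 and 0.514 to 0.883 TPM in replicate 1, so its level in the gene tables was below 1 TPM in both at this depth. Such intervals cover counting error only. In the second quantification C3 had 0.541 TPM in replicate 2 and 2.02 TPM in replicate 1. C1qb exceeded C3 38.8-fold (log2 ratio 5.28 ± 0.57, SD, n = 2) and C4b exceeded it 8.71-fold (3.12 ± 0.40). Itgam, the alpha chain of complement receptor 3 also known as CD11b, had 6.36 TPM in replicate 2 and 5.5 TPM in replicate 1, 11.6-fold above C3 (3.54 ± 0.74). The size of these ratios depends on the setting because C3 is low: with a pseudocount of 1 the log2 ratios to C3 were 3.77 for C1qb, 1.83 for C4b and 2.18 for Itgam, and with the second quantification 4.84 for C1qb, 2.45 for C4b and 2.88 for Itgam. C4b has a near-identical neighbour, C4a, at 3.66 TPM in replicate 2 and 4.04 TPM in replicate 1, and the division of reads between the pair is uncertain. Itgam shares 68.7% of its exon bases with Gm49368 on the same strand, a gene with no counts in replicate 2 and 4.43 in replicate 1.

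A wider set of 41 complement genes showed which other parts of the cascade were present. Of these, 16 were detected in both libraries, 24 had a mean TPM under 1, and 5 had no counts at all. Among 9 genes of the classical and lectin pathways, those detected were Masp1, a protease of the lectin arm, at 10.1 TPM in replicate 2 and 7.87 TPM in replicate 1, and C4a. C2 had 0.70 and 0.82 TPM in replicates 2 and 1, and C1s1 and C1ra, proteases that act with C1q, averaged 0.735 and 0.27 TPM. In the alternative pathway, properdin (Cfp) had 3.61 TPM in replicate 2 and 4.0 TPM in replicate 1, while factor B (Cfb) averaged 0.10 TPM and factor D (Cfd) had no counts. None of 7 genes of the terminal pathway was detected, and C6, C8a and C9 had no counts, which allows up to 3 counts a library, or 0.0945 CPM (counts scaled to a total of 1000000) in replicate 2 and 0.103 CPM in replicate 1. Of 7 receptor genes apart from Itgam, none passed 1 TPM in both libraries. Itgb2, the partner chain of Itgam, was nearest at 1.21 TPM in replicate 2 and 0.93 TPM in replicate 1. The anaphylatoxin receptors C3ar1 and C5ar1 averaged 0.305 and 0.27 TPM.

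Of the 15 regulators of complement listed, 13 were detected, over a wide range of levels. Clusterin (Clu), a secreted chaperone made largely by astrocytes, had 372 TPM in both replicates. Members of the Sez6 and Csmd families, neuronal membrane proteins with complement control domains, followed, among them Sez6l2 at 136 ± 4.36 TPM, Sez6l at 93.2 ± 2.31 TPM and Sez6 at 74.2 ± 8.81 TPM (SD, n = 2). The C1 inhibitor (Serping1) and the membrane regulators Cd55, Cd46 and Cd59a were low, averaging 3.36, 2.86, 1.73 and 1.68 TPM. Cr1l, another listed regulator, was higher than these, at 14.3 TPM in replicate 2 and 15.5 TPM in replicate 1. Srpx2, a secreted protein reported to bind C1q, and factor I (Cfi) averaged 0.575 and 0.055 TPM. Apart from these 13 regulators, the detected genes of the wider set were Masp1, C4a and Cfp, as the plot of the cascade shows.

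**Figure D2:**
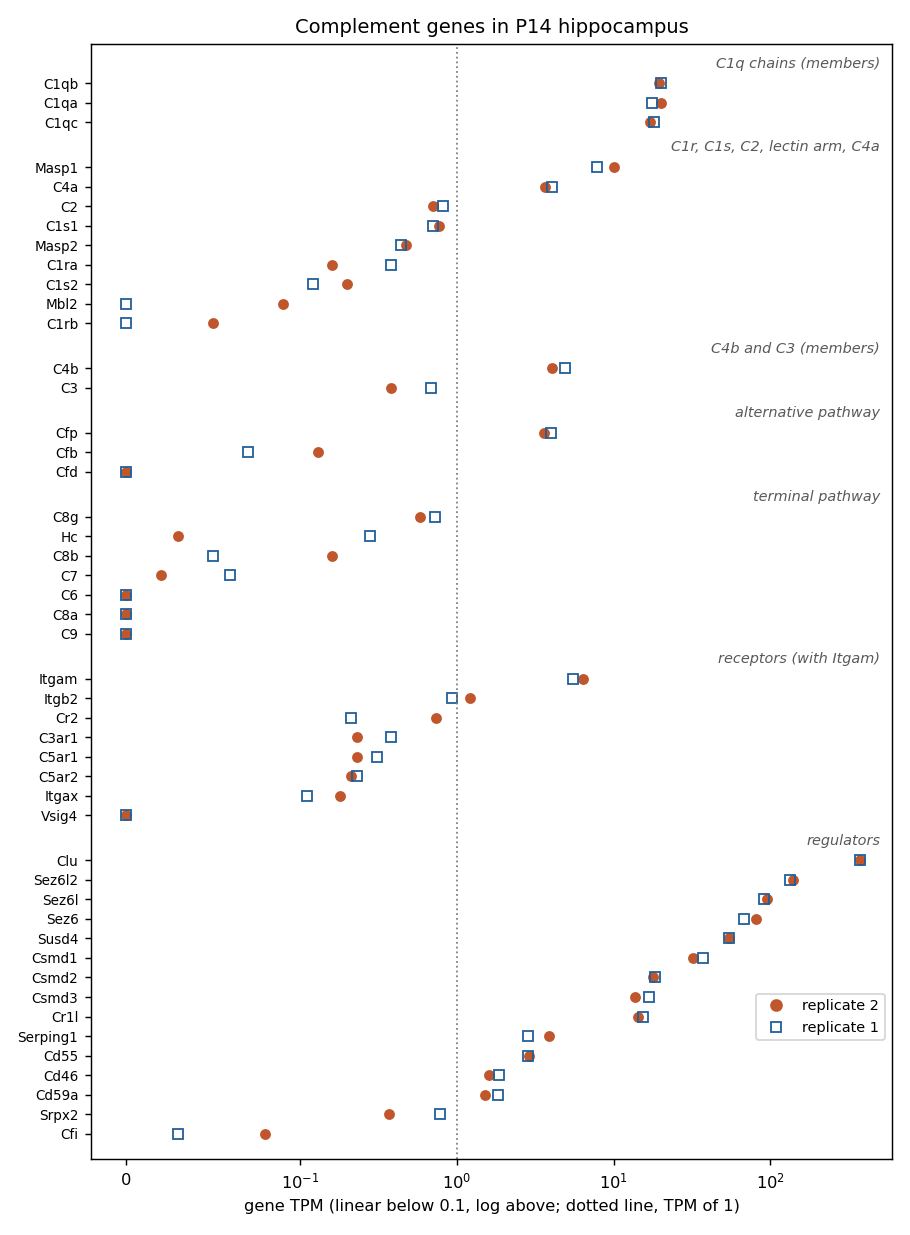
Gene TPM of complement genes by step of the cascade, with filled circles for replicate 2 and open squares for replicate 1. The axis is linear below 0.1 and logarithmic above it. The C1q chains lie between 17.0 and 19.98 TPM, every terminal pathway gene lies left of the dotted line at 1 TPM, and Clu lies at 372 TPM.

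Receptors of phagocytes often signal through adaptors that carry an ITAM, a short tyrosine motif. Tyrobp, the adaptor of Trem2, had 12.8 TPM in replicate 2 and 11.2 TPM in replicate 1, and Fcer1g, the adaptor shared by Fc receptors, had 6.43 TPM in replicate 2 and 6.12 TPM in replicate 1. Tyrobp exceeded Fcer1g 1.91-fold (log2 ratio 0.93 ± 0.085, SD, n = 2). Trem2, a receptor for lipids, had 4.91 TPM in replicate 2 and 3.19 TPM in replicate 1, 3.02-fold below its adaptor (log2 ratio of Tyrobp to Trem2 1.59 ± 0.30). Fcgr3, a low-affinity receptor for IgG, had 4.26 TPM in replicate 2 and 4.86 TPM in replicate 1, and its ratio to Fcer1g was not called (-0.46 ± 0.18). Other Fc receptors were low, with Fcgr2b at 1.39 ± 0.20 TPM, Fcgr1 at 0.90 ± 0.11 TPM and Fcgr4 at 0.04 TPM.

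Lysosomal and cytoplasmic proteins of phagocytes ranged from 3.72 to 17.0 TPM. Laptm5, a lysosomal membrane protein of blood-lineage cells, had 20.1 TPM in replicate 2 and 13.9 TPM in replicate 1. Cathepsin S (Ctss), a lysosomal protease, had 14.7 TPM in replicate 2 and 13.5 TPM in replicate 1. Cd68, a glycoprotein of the phagocytic lysosome, had 7.07 TPM in replicate 2 and 7.77 TPM in replicate 1. Aif1, the actin-binding protein stained as Iba1, averaged 4.53 ± 0.22 TPM, and Ly86, the partner of the receptor-like protein RP105, 3.72 ± 0.74 TPM (SD, n = 2). Aif1 rested on 66 counts in replicate 2 and 46 in replicate 1, in sum fewer than any of the 38 genes except C3.

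The transcription factors were low. Sall1, which maintains microglial identity, had 7.39 TPM in replicate 2 and 6.64 TPM in replicate 1. Spi1, which encodes PU.1, had 2.93 TPM in replicate 2 and 1.67 TPM in replicate 1, and Irf8, its partner in macrophage development, had 2.53 TPM in replicate 2 and 2.13 TPM in replicate 1. The ratio of Spi1 to Irf8 changed sign between the libraries (log2 ratio 0.21 in replicate 2 and -0.35 in replicate 1).

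Engulfment genes and their brakes included very abundant genes. Sirpa, the inhibitory receptor for Cd47, had 120 TPM in replicate 2 and 117 TPM in replicate 1, and Cd47 had 100.1 TPM in replicate 2 and 102.5 TPM in replicate 1. Both are expressed by neurons as well as by phagocytes, and their ratio was not called (log2 ratio of Cd47 to Sirpa -0.22 ± 0.048, SD, n = 2). Cd33, an inhibitory lectin, had 2.92 TPM in replicate 2 and 2.73 TPM in replicate 1, 41.9-fold below Sirpa. Gas6, which bridges phosphatidylserine to the receptors Tyro3, Axl and Mertk, had 46.3 TPM in replicate 2 and 43.6 TPM in replicate 1. Mertk had 9.16 TPM in replicate 2 and 13.8 TPM in replicate 1. The related receptors were higher, with Tyro3 at 28.6 ± 3.57 TPM and Axl at 20.8 ± 1.71 TPM, and the second ligand, Pros1, had 3.99 ± 0.30 TPM. Tgfb1, a cytokine that microglia require, had 4.74 TPM in replicate 2 and 3.73 TPM in replicate 1. All 9 genes listed as its partners were detected, among them the activating integrin chains Itgav at 28.1 ± 1.12 TPM and Itgb8 at 13.9 ± 0.16 TPM and the microglial anchor Nrros at 4.05 ± 0.57 TPM.

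The libraries differed in part of these genes. Each gene's counts in the 2 libraries were set against each other with an exact two-sided binomial test, with Benjamini-Hochberg adjustment over all 18332 genes whose mean count reached 10. The test compares these 2 libraries beyond counting noise, and compares no conditions. All 38 genes could be tested, and 12 passed an adjusted p of 0.05, against 22.7% of all genes tested. Higher in replicate 2 were 9 of the 38, against 12.5% of all genes, namely Cx3cl1, Csf1r, P2ry12, Cx3cr1, Fcrls, Laptm5, Trem2, Spi1 and P2ry6. Higher in replicate 1 were 3, against 10.2% of all genes, namely Mertk, C4b and Cd47. The median log2 ratio of replicate 2 over replicate 1 was 0.11 for the 38 genes and 0.00 for all genes tested, and the median size of the ratio was 0.18 for the 38 genes and 0.14 for all. With edgeR's exact test at an assumed coefficient of variation of 0.1, which allows for animal-to-animal spread, 0 of the 38 passed, against 0.944% of all genes, and 4 had an unadjusted p under 0.05.

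By role, the surface receptors had 4 of 10 genes higher in replicate 2, against 12.5% of all genes tested. None was higher in replicate 1, against 10.2% of all genes tested. P2ry6 had 91 counts in replicate 2 and 42 in replicate 1, a log2 ratio of 0.97 with a 95% counting interval of 0.43 to 1.54 and an exact binomial adjusted p of 0.0020. Cx3cr1 had 1467 and 1120 counts in replicates 2 and 1 (0.25, interval 0.14 to 0.36, adjusted p of 0.00015), Fcrls 676 in replicate 2 and 490 in replicate 1 (0.33, adjusted p of 0.0013) and P2ry12 1296 in replicate 2 and 1034 in replicate 1 (0.19, interval 0.07 to 0.31, adjusted p of 0.012). Tmem119 and Selplg did not pass the test, with log2 ratios of -0.05 and -0.04. Gpr34, at 249 counts in replicate 2 and 176 in replicate 1, lay just outside the threshold with an adjusted p of 0.050.

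In the other roles, 1 of 3 growth factor genes, 1 of 4 ITAM adaptors and partners, 1 of 5 lysosomal and phagocyte proteins and 1 of 3 transcription factors were higher in replicate 2. Of the 6 complement genes 1 was higher in replicate 1, and of the 6 genes of engulfment and its brakes 2 were. Over all genes tested, 12.5% were higher in replicate 2 and 10.2% higher in replicate 1. Each of these role counts rests on 1 or 2 genes, so no lean of a role was read from them. The receptor Csf1r passed at a log2 ratio of 0.12 (interval 0.04 to 0.20), and its ligands Il34 and Csf1 did not. Cx3cl1 differed by 0.11 (0.08 to 0.15), a small ratio measured precisely from 14913 counts in replicate 2 and 12511 in replicate 1. Spi1 had 81 counts in replicate 2 and 41 in replicate 1 (0.83, interval 0.28 to 1.42), and Trem2 had 147 in replicate 2 and 85 in replicate 1 (0.65, interval 0.26 to 1.05), whereas Irf8, Sall1 and Tyrobp did not pass. Laptm5 had 697 counts in replicate 2 and 524 in replicate 1 (0.27). None of the C1q chains passed, with ratios of 0.14 for C1qa, -0.08 for C1qb and -0.14 for C1qc and intervals that all included 0. C4b had 339 counts in replicate 2 and 382 in replicate 1 (-0.31, interval -0.53 to -0.10, exact binomial adjusted p of 0.022). Its near-identical neighbour C4a went the opposite way, with 157 counts in replicate 2 and 112 in replicate 1 (0.35, not called). The division of reads between the pair is uncertain, and its part in the C4b call was not tested.

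Mertk, C4b and Cd47 went the other way. Mertk had 805 counts in replicate 2 and 1130 in replicate 1, a log2 ratio of -0.63 with an interval of -0.76 to -0.50 and an exact binomial adjusted p of 1.4e-19. Cd47 had 7320 counts in replicate 2 and 7119 in replicate 1 in libraries of unequal size, a log2 ratio of -0.10 (-0.15 to -0.05). Scaled to the ERCC spike-ins, synthetic RNAs added to each sample, the median log2 ratio of all genes moved to 0.11 and that of the 38 genes to 0.22. On that scale 20 of the 38 were called, against 35.5% of all genes. Of these, 19 were higher in replicate 2, against 30.1% of all genes, and 1, Mertk, was higher in replicate 1, against 5.45%, while C4b and Cd47 were not called.

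Among genes that act with the 38, the wider complement set had 27 tested genes. Higher in replicate 2 were 2 of the 27, namely Masp1 and Sez6, against 12.5% of all genes tested. Another 3, namely Csmd1, Csmd3 and Srpx2, were higher in replicate 1, against 10.2% of all genes tested. These counts are near or below the shares over all genes. The receptors related to Mertk were higher in replicate 2: Tyro3 had 2450 counts in replicate 2 and 1947 in replicate 1 (log2 ratio 0.19), and Axl had 1472 in replicate 2 and 1212 in replicate 1 (0.14), with an adjusted p of 0.04997 for Axl in the exact binomial test. Of the 9 partners of Tgfb1, Tgfbr1 was higher in replicate 2 (0.17) and Itgav higher in replicate 1 (-0.24). Cd24a, a ligand of sialic acid-binding lectins made by immature neurons among others, had 784 counts in replicate 2 and 443 in replicate 1 (0.68).

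**Figure D3:**
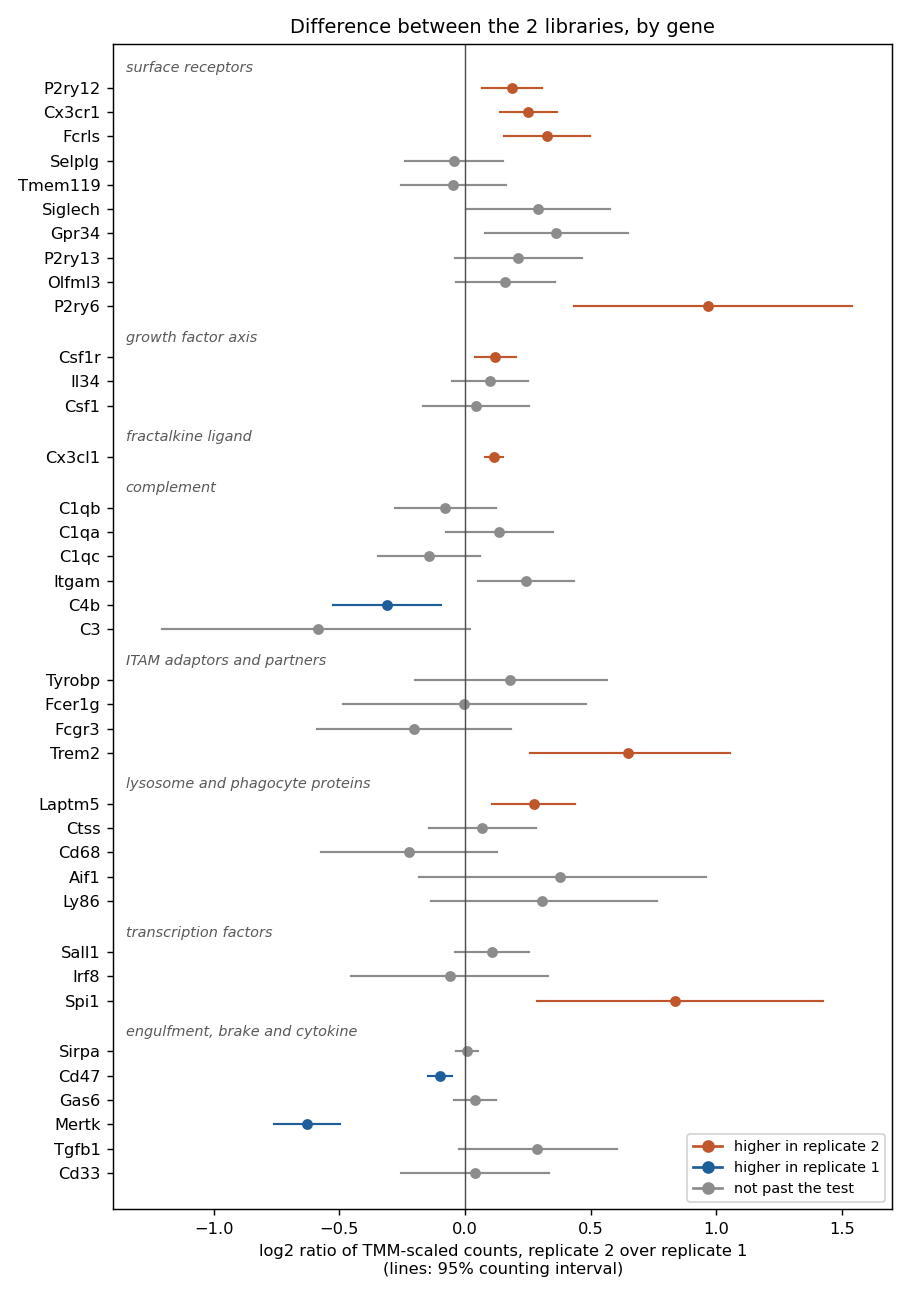
Log2 ratio of the scaled counts of replicate 2 over replicate 1 for the 38 genes, with 95% counting intervals as lines. Orange marks the 9 genes higher in replicate 2, blue the 3 higher in replicate 1 and grey the 26 that did not pass the exact binomial test. P2ry6 lies farthest right at 0.97 and Mertk farthest left at -0.63.

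Markers of other cells moved between the same libraries, as the plot of marker genes shows. All 7 markers of myelinating oligodendrocytes were higher in replicate 1; the median of their log2 ratios was -1.18, with sums of 874 TPM in replicate 2 and 1638 TPM in replicate 1. The 3 markers listed for thalamus, a neighbouring region, were also higher in replicate 1 (median -1.33, sums of 24.8 TPM in replicate 2 and 45.2 TPM in replicate 1), as were the 3 red blood cell markers (median -0.51). The 9 microglial markers had a median of 0.19, with 8 positive, 4 called higher in replicate 2 and none in replicate 1. Of the 27 further microglial markers, 19 were positive and 8 negative, with 4 called higher in replicate 2 and 1 in replicate 1 (median 0.16). Over all genes tested, 12.5% were called higher in replicate 2 and 10.2% higher in replicate 1. Neuronal markers leaned towards replicate 2. All 4 interneuron markers were positive, with 3 called, a median of 0.29 and sums of 417 TPM in replicate 2 and 308 TPM in replicate 1. All 4 excitatory neuron markers were positive, with 2 called and a median of 0.06. Border macrophage markers had a median of 0.00 over 6 tested genes, and Cd163, a hemoglobin scavenger receptor, alone was called, at -0.69. The part of these cells in the ratios of the 38 genes was not tested.

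**Figure D4:**
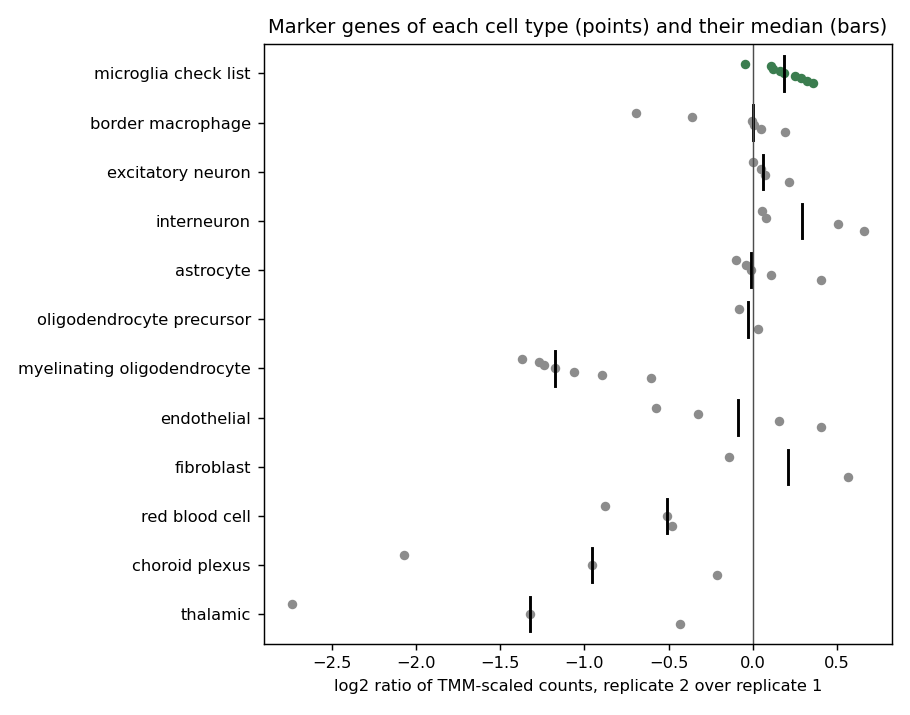
Log2 ratio of replicate 2 over replicate 1 for each marker gene whose mean count reached 10 (points), by cell type, with the median of each list as a black bar. The 9 microglial markers (green) have a median of 0.19, and those of myelinating oligodendrocytes lie left of 0, with a median of -1.18. The 27 further microglial markers are not drawn.

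At the transcript level, 5 of the 38 genes have 1 annotated transcript and 33 have several. In the first of the 2 deposited transcript tables, the leading transcript held over 50% of the gene's TPM in 28 of the 33, and it was the same transcript in both libraries in 30. Cx3cl1-201 held 95.5% ± 0.78, Tmem119-201 97.2% ± 0.36 and Mertk-201 91.4% ± 2.02 (SD, n = 2). Cd47 was divided between the coding transcripts Cd47-201 at 56.1% ± 0.69 and Cd47-205 at 43.4% ± 0.050. Il34 was divided between the coding Il34-201 at 55.1% ± 6.12 and Il34-205, annotated as a processed transcript without a coding frame, at 42.1% ± 7.14. Olfml3 was the 1 gene led by a transcript annotated as non-coding, the retained-intron form Olfml3-202, at 85.4% ± 1.23, so its gene level of 5.04 TPM is mostly not that of coding transcripts. C4b also had a retained-intron form, C4b-203, at 29.9% ± 0.30.

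The second transcript table, made by another quantification, named the same leading transcript for 25 of the 33 genes. Shares could still differ for the same leader. Cx3cl1-201 held 74.8% ± 1.34 there, Tmem119-201 100% and Mertk-201 97.05% ± 1.71. Cx3cr1-201 held 47.2% ± 5.05 there, against 98.15% ± 1.11 in the first table. The plot of leading shares also marks the genes whose leaders differed between the tables. For P2ry12 the first table gave P2ry12-202 65.2% ± 0.26, and the second gave P2ry12-201 74.1% ± 2.96. These transcripts have 3 and 4 exons, share 2060 bases and have the same coding part, so the 2 leaders differ only in noncoding parts. The coding parts of the other P2ry12 transcripts were not compared. The coding part was also the same for the differing leaders of Sirpa, Gpr34 and Aif1. It differed for the other 4 genes, Ctss, Siglech, Tyrobp and Fcgr3. The coding part had 927 bases in Siglech-201 and 648 in Siglech-208, the leader of the second table. For Fcgr3 the second table was led by a retained-intron transcript with no coding part, at 61.8% ± 6.91. Ctss-201 and Ctss-202, which share 1352 of 1355 bases, were split evenly at 50% each in the second table, against 96.5% ± 4.94 for Ctss-202 in the first. Tyrobp-201 held 62.4% in replicate 2 and 97.7% in replicate 1 in the first table, and Aif1-201 held 74.8% in replicate 2 and 23.2% in replicate 1, so shares of these thinly counted genes varied between libraries. In the first table the leader of Siglech was Siglech-208 in replicate 2 and Siglech-201 in replicate 1. That of Itgam was Itgam-201 in replicate 2 and Itgam-203 in replicate 1. Gene levels in TPM divide by the length of the transcripts assigned. Such shifts therefore also enter the TPM of Aif1, Tyrobp, Laptm5, Siglech and Itgam, and the pair ratios built on TPM. The counts and the ratios of counts between the libraries do not depend on them.

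**Figure D5:**
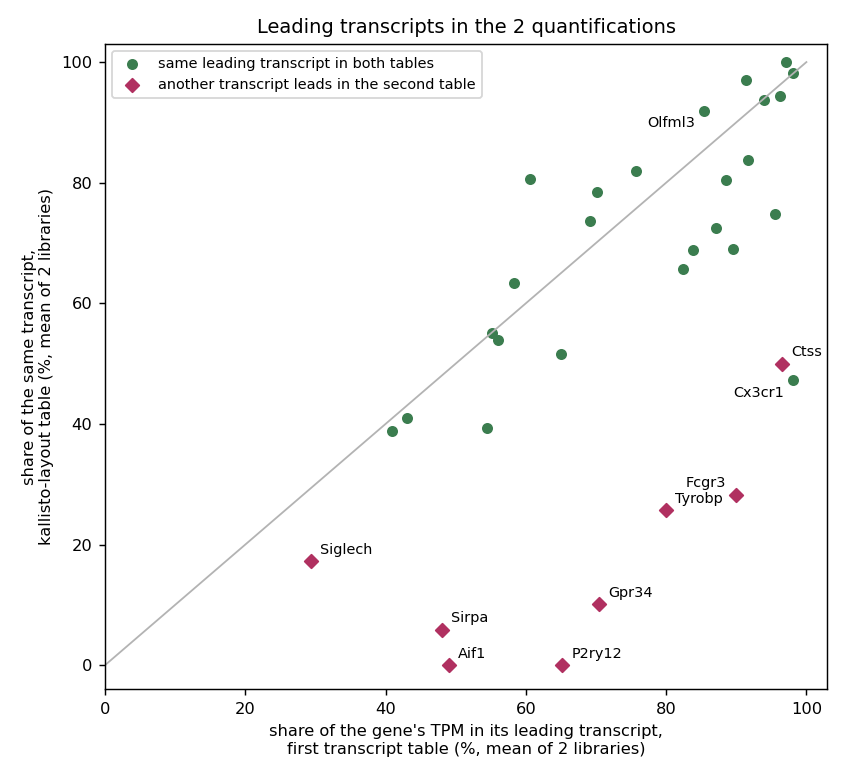
Share of the gene's TPM (%) held by the transcript that leads in the first transcript table, against its share in the kallisto-layout table, as means of the 2 libraries, for genes with several transcripts. Circles mark 25 genes with the same leader in both tables, diamonds the 8 others, and the line marks equal shares. P2ry12 lies at 65.2% against a share near 0.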

How the data were processed

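Total RNA was measured in 2 libraries of 1 group. The authors deposited expected counts (estimated reads per gene or transcript, not normalised) and TPM (scaled to a fixed total over all entries), per the file headers. Their transcript tables also give each transcript's share of its gene's TPM in percent, per the file headers, and a second pair of tables in the layout of kallisto gives estimated counts with their TPM, as the authors deposited them. The gene tables further hold the posterior standard deviation of each count, deposited by the authors, which was 0 for 35 of the 38 genes and at most 1.42% of the count for Itgam, Fcgr3 and C4b. Build mm10 and annotation GENCODE M21 come from the notes deposited with the tables. No source used here names the aligner, the quantifiers or their versions. The effect of placing reads of CAST/EiJ alleles on this C57BL/6J build was not tested.

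Of 81881 entries, 55536 were annotated genes and 97 spike-ins. The remaining 26248 carried only a number, held 9.4e-06% of counts in replicate 2 and 2.67e-05% in replicate 1, and were left out. Counts were rounded and library sizes scaled by TMM (edgeR 4.0.16, limma 3.58.1, R 4.3.3). Counts of the 2 libraries were compared gene by gene (exact binomial test, two-sided), with p-values adjusted by Benjamini-Hochberg over genes tested, with a threshold of 0.05. With 1 library a side no quasi-likelihood fit has residual degrees of freedom. Log2 ratios had a prior count of 0.5, and counting intervals are at 95%. The test was first checked on simulated counts with 200 changed genes, drawn with counting noise only. That check therefore does not cover spread between animals. Other steps used Python 3.11.15, numpy 2.4.6, scipy 1.17.1, pandas 2.3.3 and matplotlib 3.10.9. Alternatives covered another scaling, count filter, TPM scale, quantification and test, and leaving out each library.

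The 38 genes, the gene lists and the pairs were chosen with earlier results of these data known. Named were all 38 genes, genes of the pairs, and from other lists up to 4 of the highest mean TPM and those under a mean TPM of 1. Csmd1, Csmd3, Cr1l, Serping1, Cd55, Cd46, Cd59a, Nrros and Igf1 lie outside that rule and were named after their values were seen. Protein sequences were not used here, and some genes of the lists are not reported here.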

Additional observations from a re-analysis of the deposited data

How the results depend on the processing

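All 20 pair ratios kept their direction with a pseudocount of 1, and 13 pairs were called there and 14 in the kallisto-layout table. With kallisto-layout values, 3 ratios that were not called turned: C1qc to C1qa to 0.13, C1qb to C1qc to -0.025 and Spi1 to Irf8 to 0.29. Fcgr3 to Fcer1g was called there at -0.56. At a TPM of at least 5, 23 of the 38 genes were detected. The median level of the 38 genes was 11.4 TPM in the kallisto-layout table, 15.2 over protein-coding genes and 14.5 over protein-coding genes of the kallisto-layout table, an alternative chosen after seeing the data. Leaving out 1 library gave medians of 7.205 to 7.38 TPM. With spike-in scaling, 20 of the 38 genes differed (19 upwards in replicate 2, 1 upwards in replicate 1), their median log2 ratio was 0.22, and 10 of the 12 calls were kept. In the exact test of edgeR, with the coefficient of variation set to 0.1, 0 differed in either direction (0 upwards in replicate 2, 0 in replicate 1), against 4 at an unadjusted p under 0.05 and 173 of 18332 genes called. The causes were not tested. The 12 calls were all kept with median-of-ratios factors (14 called, against 23.9% of all genes), a mean count of at least 50 (14, 28.3%), no filter (12, 13.6%) and kallisto-layout counts (15, 25.3%). No paired analysis was possible because there is a single group. C3, Spi1, Aif1 and P2ry6, each under 100 counts in both libraries, had the widest counting intervals of the 38 genes.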

Other observations

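Genes of activated or inflammatory microglia were scarce in both libraries. Of 9 inflammatory mediators none reached 1 TPM in both. Il1b had 1 count in each library, Tnf had 2 counts in replicate 2 and 4 in replicate 1, and Il10, an anti-inflammatory cytokine, had none. Nlrp3, the sensor of an inflammasome, was the highest of them at 0.49 TPM in replicate 2 and 0.80 TPM in replicate 1. It was higher in replicate 1 by the exact binomial test (19 and 36 counts in replicates 2 and 1, log2 ratio -1.04, adjusted p 0.044). Among 7 genes of innate sensing, Tlr3 averaged 2.62 TPM, the adaptor Myd88 2.14, Tlr7 1.67 and the co-receptor Cd14 1.66, and none of the 7 differed between the libraries.

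Genes tied to the phagocytic state of early postnatal microglia were divided. The lipid carrier Apoe had 1241 TPM in replicate 2 and 1123 TPM in replicate 1, and the protease Ctsb had 147 TPM in replicate 2 and 141 TPM in replicate 1. Both are also made by astrocytes or neurons, so these levels cannot be assigned to microglia. Lpl had 54.6 TPM in replicate 2 and 44.1 TPM in replicate 1, and Cd63 had 39.0 TPM in replicate 2 and 32.1 TPM in replicate 1. Their cells of origin were not tested. Of 7 tested genes of this list, 3 (Apoe, Lpl and Cd63) were higher in replicate 2 by the exact binomial test, against 12.5% of all genes. Igf1, a growth factor, had 7.18 TPM in replicate 2 and 5.33 TPM in replicate 1. Spp1, Lgals3, Gpnmb and Clec7a averaged 0.575, 0.47, 0.30 and 0.05 TPM, and Cst7 had no counts in either library. Further purine genes were low, with the nucleotide hydrolase Entpd1 at 6.96 ± 1.22 TPM and the ion channels P2rx4 at 4.38 ± 0.57 and P2rx7 at 3.37 ± 0.16 (SD, n = 2). P2ry14, another neighbour of P2ry12, had 19 counts in replicate 2 and 42 in replicate 1, a log2 ratio of -1.26 (exact binomial adjusted p 0.0078), opposite to that of P2ry12.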
